A study of Mus musculus with 6 samples.

Results

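Cholesterol ester formation, hydrolysis and trafficking were examined through 10 genes chosen by name for their known roles, out of 44713 genes in the count table of mouse pancreatic islets. The members were Soat1, Soat2 and Lcat, which esterify cholesterol, Lipe, Nceh1 and Lipa, which hydrolyse the esters, and Npc1, Npc2, Stard3 and Stard4, which move free sterol between membranes. In db/db islets Soat1 was lower and Lcat higher than in db/m islets at an unadjusted p under 0.05. After TMM scaling between libraries, Soat2 was higher in every db/db mouse than in any db/m mouse but did not pass that threshold. The hydrolysis genes overlapped between the groups, and the transfer genes were split, with Stard3 higher, Stard4 lower and Npc1 and Npc2 overlapping. Among all tested genes the groups did not overlap for 8.53% higher and 12.6% lower. Scaled by library totals alone, the groups of Soat2 and Stard3 overlapped and those of Nceh1 did not. None of the 10 passed an adjusted p of 0.05 in edgeR's quasi-likelihood test. At an unadjusted p under 0.05 in that test 2 were higher and 2 lower, beside 5.04% and 9.89% of all tested genes. DESeq2 called 1 member, Lcat, and 707 of 12760 tested genes.

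Cells keep free cholesterol in their membranes within narrow limits and store the surplus as cholesterol esters in lipid droplets. Sterol O-acyltransferases of the endoplasmic reticulum make the intracellular esters, neutral hydrolases release them again from droplets, and lysosomal acid lipase releases the sterol of lipoproteins taken up from outside. Membrane cholesterol is known to bear on insulin granules and exocytosis in β cells, so that its storage and transport are of interest in an islet exposed to excess lipid.

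RNA-seq was performed on islets of 3 db/db mice, in which the leptin receptor is defective and obesity and diabetes develop, and of 3 db/m mice, their non-diabetic littermates, all male and 10 weeks old. The labels give the genotypes as Lepr-/- and wild type and the strain as C57BL/6, whereas the methods of the study name a BKS strain, and by name db/m mice carry 1 db allele. Islets were obtained with collagenase and a Histopaque gradient, and libraries were made from total RNA after removal of ribosomal RNA. Counts of Lepr were 4, 10 and 68 for db/db mice and 37, 25 and 8 for db/m mice, and since the db allele is a splicing defect of the long receptor form, counts of the whole gene cannot check the genotype. The receptor defect was present in the whole animal, so obesity, diabetes and the islet genotype cannot be told apart.

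The library totals were between 15641797 and 20614531 counts. The label reads islet cells, but 18 acinar markers, such as digestive enzymes, held 57.2 to 61.9% of all counts in db/db mice and 44.1 to 56.3% in db/m mice (95% Clopper-Pearson half-widths up to 0.0246 percentage points, for counting error only). The 13 β-cell markers held 0.195 to 0.694% and 0.864 to 4.55%, the highest share being that of db/m replicate 1. The median log2 fold change of the 13 β-cell markers was -2.78, and 5 of them were lower in db/db mice at an adjusted p under 0.05 in edgeR. In such bulk samples, fewer cells of a type and less RNA per cell cannot be told apart. Levels are given as CPM, counts per 1e6 of a library total that was rescaled by TMM, a factor that sets the bulk of genes level between libraries. The factors ranged from 0.605 in db/db replicate 1 to 1.75 in db/m replicate 1. Of all genes, 12760 passed a filter on low counts, all 10 members included, and 79 of them, or 0.619%, had an adjusted p under 0.05.

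The study linked Soat1 to the microRNA miR-7222-3p by luciferase reporters with the Soat1 3′ UTR, with competition by circ-Tulp4. In a β-cell line, a mimic of the microRNA lowered Soat1 mRNA and protein. The study also reported lower Soat1 in db/db islets, measured apart from the sequencing. The mature sequence is therefore shown with its seed, bases 2 to 8, in capitals. It lies on chr2:92594654-92594676 (plus strand) of GRCm38, and all sequences are from RefSeq.
mmu-miR-7222-3p: uCCAGGACagugggcaggagcag

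The letters complementary to the seed are GTCCTGG, and the shorter form TCCTGG pairs with bases 2 to 7. In the longest RefSeq 3′ UTR of each member, the 7-letter match was present once in Soat1 (2951 bases of UTR) and once in Stard4 (4672 bases), and the UTR of Nceh1 was of similar length (3093 bases). The 3′ UTRs of the other 8 members, of 21 (Lcat) to 3093 bases (Nceh1), held none. Over 19536 genes, 14.12% held such a match, at 0.134 per kb of UTR. The 6-letter form, which lies within every 7-letter match and was counted with it, was present at 2 places in Soat1, 1 in Stard4 and 1 in Nceh1, against 0.545 per kb over all genes. The matches of Soat1 and Nceh1 are shown as the mRNA strand on GRCm38, with the matching letters in capitals, because the members that carry the letters did not differ in the same way.
Soat1, chr1:156429229-156429256, minus strand: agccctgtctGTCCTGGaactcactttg
Soat1, chr1:156429549-156429576, minus strand: tttggtggttTCCTGGcaaccatccgta
Nceh1, chr3:27242606-27242633, plus strand: ttaagaatacTCCTGGcataagttacta

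Soat1 and Stard4 were the members with 7-letter matches, and both were lower in db/db mice, whereas Nceh1 overlapped between the groups. Whether the matches bear on these levels was not tested. The precursor gene Mir7222 stood at 0 counts in all 6 mice, and such libraries are not made to capture mature microRNAs. A match of letters is a description of the UTR and no measure of binding.

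In TMM-scaled levels the groups did not overlap for any of the 3 esterification members, with Soat1 lower and Soat2 and Lcat higher. Among all tested genes the groups did not overlap for 12.6% lower and 8.53% higher. With library totals alone the groups of Soat2 overlapped. Soat1 (chr1:156428108-156474328, minus strand) encodes the acyltransferase found in most tissues. It had 55, 58 and 63 counts in db/db mice and 290, 134 and 109 in db/m mice, or 4.42, 3.47 and 4.24 CPM against 10.6, 7.80 and 5.90 CPM. Every db/m mouse was above every db/db mouse, the db/db mice were close together, and db/m replicate 1 was the highest. The means were 4.04 ± 0.503 and 8.12 ± 2.39 CPM (SD, n = 3 each), a log2 fold change of -1.01 (SE 0.30), with an unadjusted p of 0.0085 and an adjusted p of 0.164 in edgeR. Without db/m replicate 1 the log2 fold change was -0.74, at an unadjusted p of 0.0425 in edgeR.

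Soat2 (chr15:102150415-102163469, plus strand) encodes the second acyltransferase, known mainly from liver and intestine. Its counts were 35, 72 and 62 in db/db mice and 45, 2 and 46 in db/m mice, and its levels 2.81, 4.30 and 4.17 CPM against 1.65, 0.116 and 2.49 CPM. The groups did not overlap, although db/db replicate 1 and db/m replicate 3 were close to each other, and db/m replicate 2 was at 2 counts, under the limit of 3 counts used here for a gene without reads. The log2 fold change was 1.39 (SE 0.73), which did not pass the test (edgeR, unadjusted p = 0.0897, adjusted p = 0.416). It was 0.90 without db/m replicate 2 and 2.04 without db/m replicate 3, where the unadjusted p of edgeR was 0.0392. Scaled by library totals alone the groups overlapped.

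Lcat (chr8:105939551-105943402, minus strand) encodes the secreted enzyme that esterifies cholesterol on high-density lipoproteins, and thus acts outside the cell. It had 634, 319 and 530 counts in db/db mice and 95, 187 and 115 in db/m mice. The levels were 50.9, 19.1 and 35.6 CPM in db/db mice against 3.49, 10.9 and 6.23 CPM in db/m mice. Every db/db mouse was above every db/m mouse, with db/db replicate 1 the highest and db/m replicate 1 the lowest. The level was 5.15-fold higher in db/db mice, a log2 fold change of 2.36 (SE 0.47), at an unadjusted p of 7.07e-04 and an adjusted p of 0.0654 in edgeR. DESeq2 gave it an adjusted p of 7.1e-05, and over 14 alternatives the adjusted p was between 6.1e-07 and 0.258.

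**Figure D1:**
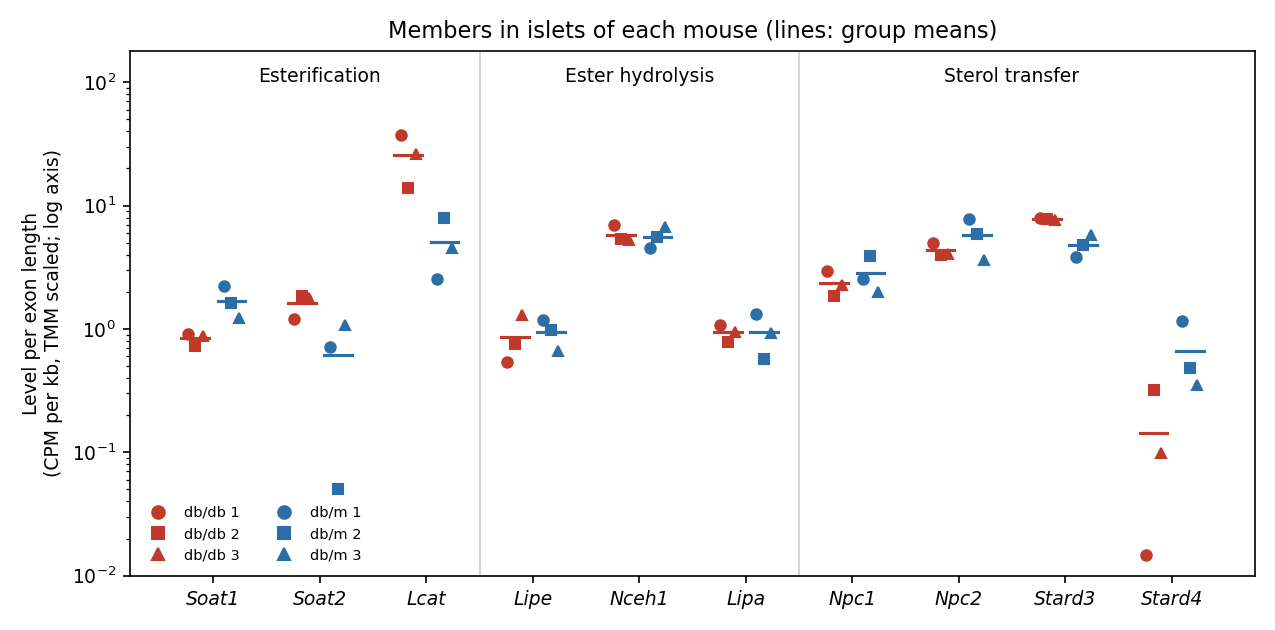
Level per exon length (CPM per kb, TMM scaled, log axis) of the 10 members in each mouse, grouped by step, with db/db mice in red, db/m mice in blue, a symbol for each replicate and a line at each group mean. Soat1 was lower and Soat2 and Lcat were higher in all 3 db/db mice, the symbols of Lipe, Nceh1 and Lipa overlap, and Stard3 and Stard4 stand apart in opposite directions.

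Because Soat1 and Soat2 carry out the same reaction, their ratio was taken within each mouse, which does not depend on the scaling between libraries. Per exon length, the ratio of Soat1 to Soat2 was 0.758, 0.389 and 0.490 in the db/db mice. In the db/m mice it was 3.11, 32.3 and 1.14. Soat2 was thus the higher of the pair per exon length in all db/db mice, and Soat1 the higher in all db/m mice, with the value of db/m replicate 2 resting on 2 counts of Soat2. On the log2 scale of counts with 0.5 added, the ratio averaged 0.12 ± 0.48 and 3.22 ± 2.31 (SD, n = 3 each), a difference of -3.10 (SE 1.36). The groups were apart at an exact two-sided permutation p of 0.1, the smallest that 3 mice against 3 can give. Of 8 ratios computed in the same way, the smallest Benjamini-Hochberg p was 0.2, again by exact permutation, so that no ratio can pass a threshold of 0.05 in this design.

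The hydrolysis genes were then compared. Nceh1 (chr3:27183004-27245266, plus strand) encodes a neutral cholesterol ester hydrolase. It was at 32.8, 25.4 and 24.8 CPM in db/db mice and at 21.5, 26.7 and 31.6 CPM in db/m mice. The ranges lay nearly on top of each other, with a log2 fold change of 0.06 (SE 0.24) and an adjusted p of 0.928 in edgeR. Lipe (chr7:25379527-25398486, minus strand), hormone-sensitive lipase, which cleaves cholesterol esters as well as diacylglycerols, was at 2.41, 3.35 and 5.78 CPM against 5.25, 4.37 and 2.92 CPM. Lipe was thus spread as widely within each group as between them (log2 fold change -0.12, SE 0.40, edgeR adjusted p = 0.907). Lipa (chr19:34492316-34527474, minus strand), lysosomal acid lipase, was at 3.21, 2.33 and 2.82 CPM against 3.96, 1.69 and 2.76 CPM. Its db/db values all lay within the range of the db/m values (log2 fold change -0.02, SE 0.41, edgeR adjusted p = 0.990).

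The groups overlapped for all 3 hydrolases, whose log2 fold changes had a median of -0.02. These values do not show that the hydrolases were equal between the groups, since the standard errors were 0.24 to 0.41 on the log2 scale. Lipe shares 809 exon bases with 4732471J01Rik on the opposite strand, a long non-coding RNA that had 0, 0 and 8 counts in db/db mice and 10, 4 and 2 in db/m mice, and the strand setting of the counting is not given in the sources used here, so reads of the pair cannot be told apart.

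Further ratios set Soat1 against the hydrolases Nceh1 and Lipa, and hydrolases against each other. Soat2, which carries out the same reaction as Soat1, was not part of them. Its mean level was 1.62 CPM per kb for the db/db group and 0.612 for the db/m group, opposite in direction to Soat1. These mRNA ratios thus describe Soat1 alone, and the balance of all ester formation against hydrolysis was not tested. Per exon length, the ratio of Soat1 to Nceh1 was 0.133, 0.135 and 0.169 in db/db mice and 0.490, 0.289 and 0.185 in db/m mice. The ratio of Soat1 to Lipa was 0.850, 0.919 and 0.927 against 1.66, 2.86 and 1.32. Both ratios were lower in every db/db mouse than in every db/m mouse, and Soat1 was above Lipa only in the db/m mice. The log2 differences were -1.03 (SE 0.42) and -1.03 (SE 0.33), each with an exact permutation p of 0.1. Without db/m replicate 1 the difference for Soat1 to Nceh1 was -0.67. Between hydrolases the groups overlapped, with log2 differences of 0.00 (SE 0.46) for Lipa to Nceh1 and -0.23 (SE 0.63) for Lipe to Nceh1.

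**Figure D2:**
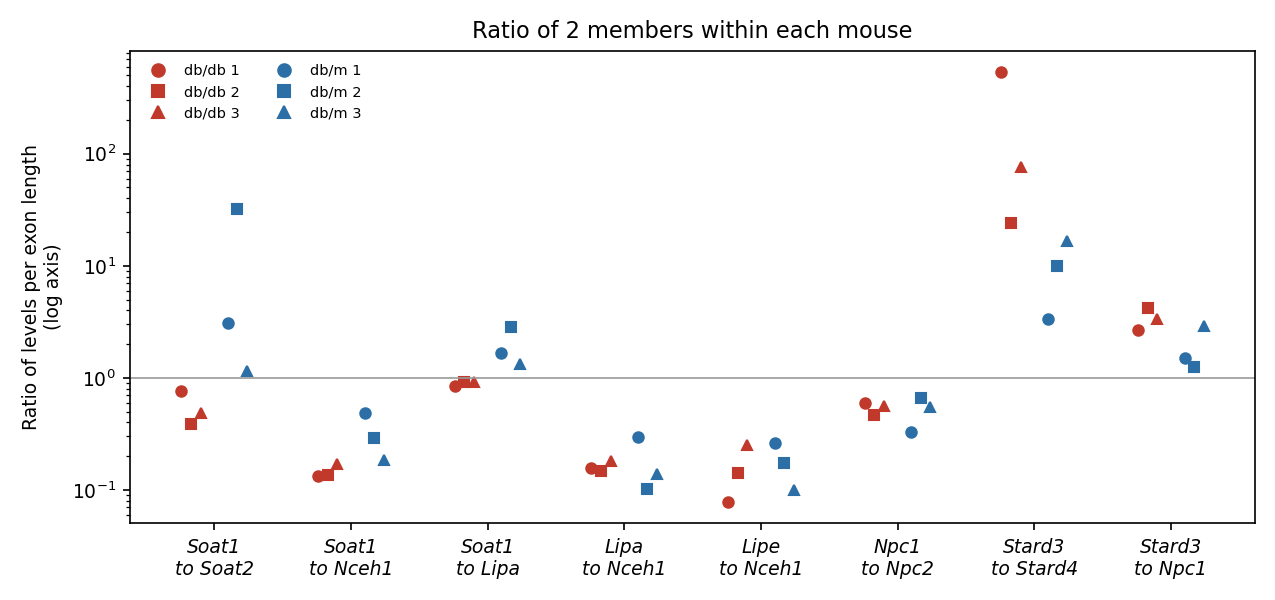
Ratio of levels per exon length for 8 pairs of members within each mouse (log axis, grey line at 1), with db/db mice in red and db/m mice in blue. The ratio of Soat1 to Soat2 is under 1 in all 3 db/db mice and over 1 in all 3 db/m mice, and the ratio of Stard3 to Stard4 is higher in every db/db mouse.

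Among the transfer genes, the proteins of the lysosomal exit were considered next. Npc2 is a soluble protein that takes cholesterol up in the lysosome and hands it to Npc1, the membrane protein through which it leaves. Npc1 (chr18:12189694-12236506, minus strand) was at 15.8, 9.93 and 12.0 CPM in db/db mice and 13.6, 20.7 and 10.7 CPM in db/m mice. Npc2 (chr12:84754559-84773112, minus strand) was at 16.1, 13.0 and 13.2 CPM against 25.4, 19.2 and 11.9 CPM. For each gene db/m replicate 3 lay among or under the db/db mice, and the groups overlapped. The log2 fold changes were -0.25 (SE 0.30) for Npc1 and -0.42 (SE 0.29) for Npc2, with edgeR adjusted p-values of 0.727 and 0.537. The ratio of Npc1 to Npc2 also overlapped, with a log2 difference of 0.13 (SE 0.32) and an exact permutation p of 0.8. Without db/m replicate 3, Npc2 had a log2 fold change of -0.65 and an unadjusted p of 0.0316 in edgeR, and without db/m replicate 1 it had -0.12 and 0.688. Npc1 shares 288 exon bases with Rmc1 on the opposite strand, listed here as 3110002H16Rik with 9, 26 and 35 counts in db/db mice and 55, 34 and 24 in db/m mice.

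Stard3 (chr11:98358367-98381112, plus strand) encodes a late endosomal protein that passes sterol between the endosome and the endoplasmic reticulum. It had 222, 293 and 255 counts in db/db mice and 237, 187 and 242 in db/m mice, which overlapped before scaling. After scaling, the db/db mice were at 17.8, 17.5 and 17.1 CPM and the db/m mice at 8.70, 10.9 and 13.1 CPM. The db/db mice were almost equal and all above the db/m mice. The level was 1.61-fold higher in db/db mice, a log2 fold change of 0.68 (SE 0.23), with an unadjusted p of 0.0155 and an adjusted p of 0.214 in edgeR. Under library totals alone the log2 fold change was 0.15 and the groups overlapped, so this difference rests on the scaling.

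Stard4 (chr18:33199138-33213862, minus strand) encodes a small soluble sterol carrier of the cytosol, and its gene is a known target of SREBP2, the factor that switches on cholesterol synthesis. It had 1, 29 and 8 counts in db/db mice and 171, 45 and 35 in db/m mice, or 0.0803, 1.73 and 0.538 CPM against 6.28, 2.62 and 1.90 CPM. The groups did not overlap, although db/db replicate 2 came close to db/m replicate 3, and db/db replicate 1 was under the limit of 3 counts. The level was 4.45-fold lower in db/db mice, a log2 fold change of -2.16 (SE 0.82), with an unadjusted p of 0.0266 and an adjusted p of 0.265 in edgeR. Without db/m replicate 1 the log2 fold change was -1.45 (edgeR, unadjusted p = 0.120), without db/db replicate 3 it was -1.93 (edgeR, unadjusted p = 0.0787), and without db/db replicate 2 it was -3.46 (edgeR, unadjusted p = 0.0041). With every gene of at least 1 count kept in the test, the adjusted p of edgeR was 0.0202, and over 14 alternatives it was between 0.0202 and 0.701.

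Stard3 and Stard4, which share the START domain that holds the sterol, were compared within each mouse. Per exon length, the ratio of Stard3 to Stard4 was 533.7, 24.3 and 76.6 for db/db mice against 3.33, 9.99 and 16.6 for db/m mice, and the groups did not overlap. The log2 difference of counts was 3.38 (SE 1.32), with an exact permutation p of 0.1. The highest value rests on the 1 count of Stard4 in db/db replicate 1. The ratio of Stard3 to Npc1, a pair that meets at the late endosome, was 2.66, 4.17 and 3.37 against 1.51, 1.25 and 2.89, where db/db replicate 1 was under db/m replicate 3 and the exact permutation p was 0.2.

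Promoter sequences of 250 bases before to 50 bases after the start were found in the RefSeq table (GRCm38) for 7 of the 10 members, with 8 promoters. Those of Soat2, Stard4 and Npc1 were not searched. The others were searched on both strands for a sterol regulatory element, TCACNCCAC, which SREBP factors bind, for the E-box CACGTG, and for CCAAT. The sterol regulatory element was present in 1 of them, that of Stard3, and in 1.24% of 32851 promoters of the same length. The E-box was present in Nceh1 and in 1 of the 2 promoters of Lipe, against 7.15% of all promoters. The letters CCAAT were present in the promoters of Soat1, Lcat, Lipa, Nceh1, Npc2 and Stard3, against 37.41%. The element of Stard3 and the CCAAT letters of Soat1 and Lcat are shown on the strand of the gene, with the motif in capitals (ATTGG is CCAAT on the other strand), since these members differed in opposite directions.
Stard3, chr11:98358147-98358175, plus strand: cagttcccctTCACTCCACagtgtcaggc
Soat1, chr1:156474344-156474368, minus strand: cgcaggaccaCCAATggcatcccgg
Lcat, chr8:105943468-105943492, minus strand: ggccacccccATTGGccgtctgtcc

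By step, 1 esterification gene was lower (Soat1) and 1 higher (Lcat) at an unadjusted p under 0.05 in edgeR, 0 of 3 hydrolysis genes passed it, and among the 4 transfer genes 1 was higher (Stard3) and 1 lower (Stard4). Over all 10 members 2 were higher, beside 5.04% of all tested genes, and 2 were lower, beside 9.89%. The groups did not overlap for 3 members that were higher (Soat2, Lcat and Stard3), beside 8.53% of all tested genes, and for 2 that were lower (Soat1 and Stard4), beside 12.6%. The median log2 fold change of the members was -0.07, and that of all tested genes was 0.00.

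The scaling between libraries set part of these values. Library totals alone, without TMM, moved the median log2 fold change of all tested genes to -0.59. Under that scaling Lcat was at 1.80, Soat1 at -1.71 and Stard4 at -2.79, and their groups stayed apart. The groups of Nceh1 also came apart, with a log2 fold change of -0.51, which was at 0.06 under TMM. At an unadjusted p under 0.05 in edgeR, Lcat was then higher, and 4 members were lower, namely Soat1, Stard4, Npc1 and Npc2. The share of all tested genes at that p is not given for this scaling, so these counts are no result about the members. Npc1 was at -0.88 and Npc2 at -1.13, with unadjusted p-values of 0.044 and 0.042 in edgeR, and Stard3 was at 0.15 with 0.653. Every member lay on the same side of the median of all tested genes under both scalings. Lcat, Soat2, Stard3 and Nceh1 were above that median and the other members below it.

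**Figure D3:**
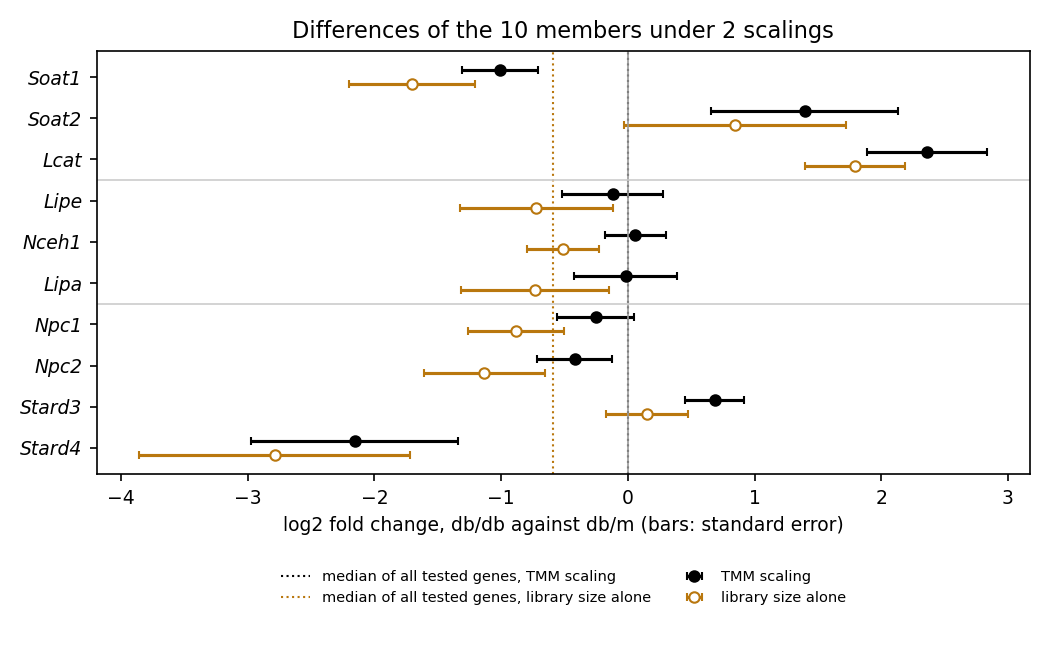
Log2 fold change of db/db against db/m islets for the 10 members (points, with standard errors as bars), under TMM scaling (filled) and library totals alone (open), with dotted lines at the median of all tested genes under each. Lcat lies to the right and Soat1 and Stard4 to the left of 0 under both scalings, while Nceh1 is at 0.06 under TMM and at -0.51 under library totals.

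The order of the members by level per exon length also differed between the groups. In db/db mice Lcat was highest, at 25.8 ± 11.7 CPM per kb (SD, n = 3), followed by Stard3 at 7.76 and Nceh1 at 5.82 CPM per kb. In db/m mice Npc2 (5.77), Nceh1 (5.59), Lcat (5.04) and Stard3 (4.83 CPM per kb) were closer together than the spread between mice. Lcat ranked at place 1 in every db/db mouse and at places 4, 1 and 3 in the db/m mice. Soat1 ranked 6 in every db/m mouse and 8, 9 and 9 in the db/db mice, whereas Soat2 ranked 6 in every db/db mouse and 10, 10 and 7 in the db/m mice. Npc1 ranked 5 in all 6 mice. At the lower end, Lipa (0.939), Lipe (0.866) and Soat1 (0.840 CPM per kb) did not differ in db/db mice beyond their spread, and Stard4 was lowest at 0.145 CPM per kb.

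The members were set beside cell markers in each mouse. Soat1, Stard4, Npc2 and Lipa were highest in db/m replicate 1. That mouse also had the highest share of β-cell markers (4.55%, against 0.883 and 0.864% in the other db/m mice). Its share of acinar markers was the lowest (44.1%), and its TMM factor the highest (1.75). Lcat, Stard3 and Nceh1 were highest in db/db replicate 1, which had the highest acinar share (61.9%) and the lowest β-cell share (0.195%). Its TMM factor was the lowest (0.605). Soat2, Lipe and Npc1 were highest in other mice. The acinar share was higher in every db/db mouse (57.2 to 61.9%) than in every db/m mouse (44.1 to 56.3%). A model with the acinar level as a covariate thus cannot tell acinar content and genotype apart. With this covariate, Lcat was at a log2 fold change of 1.51 (unadjusted p of 0.00863 in edgeR). Soat1 was then at -0.68 and Stard4 at -0.86, with unadjusted p-values of 0.0839 and 0.224 in edgeR, and Stard3 was at 0.45 with 0.0939. In that model 1 of 10 members was under an unadjusted p of 0.05, and the share of all tested genes at that p is not given for it.

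Of 11 macrophage markers in the table, 8 were tested and 1 (Lyz2) was higher at an unadjusted p under 0.05 in edgeR. Among all tested genes 5.04% were higher and 9.89% lower at that p. The summed level of the macrophage markers was 20.1 to 70.2 CPM in db/db mice and 7.63 to 52.1 CPM in db/m mice. The summed level of hepatocyte markers was 28.2 to 64.0 and 35.7 to 160.2 CPM. Most of it in every mouse was Ttr, at means of 42.1 and 83.8 CPM, which is also an islet endocrine marker. Alb was at means of 1.05 and 1.40 CPM, so the sum is no measure of hepatocytes. The summed level of adipocyte markers was 3.77 to 5.86 and 3.19 to 9.55 CPM. Of 7 stromal markers 6 were tested, with a median log2 fold change of 1.33, and 1 of them, Lum, was higher at an unadjusted p under 0.05 (2.41, edgeR unadjusted p = 0.00672). Their summed level was 36.8 to 68.2 CPM in db/db mice and 4.72 to 49.3 CPM in db/m mice. Of 6 duct markers 2 were higher (Krt19 and Spp1) and 1 lower (Krt7) at an unadjusted p under 0.05, beside the same 5.04% and 9.89% of all tested genes. The summed level of the duct markers was 160.9 to 210.3 CPM against 105.6 to 170.4 CPM. The part of these cell types in the members' levels was not tested.

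**Figure D4:**
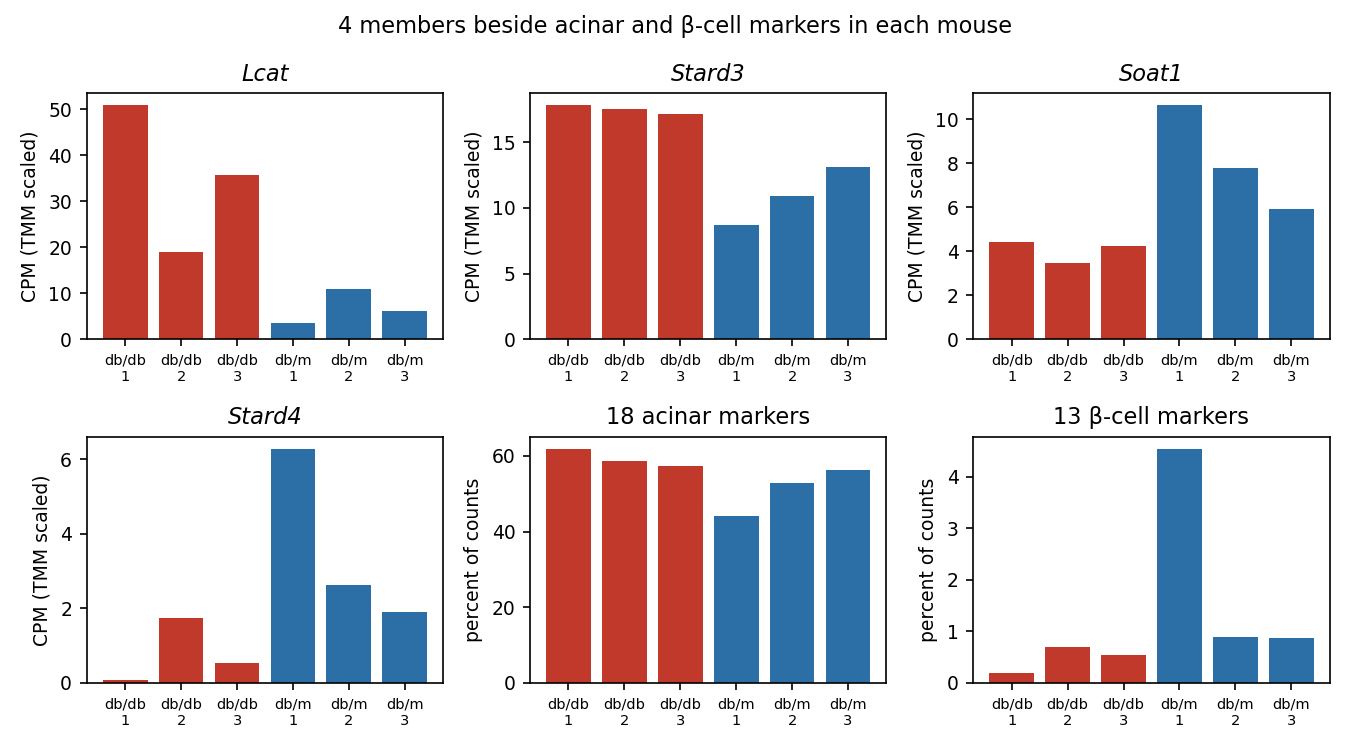
Levels (CPM, TMM scaled) of Lcat, Stard3, Soat1 and Stard4 in each mouse, beside the percent of counts held by 18 acinar and 13 β-cell markers, with db/db mice in red and db/m mice in blue. Soat1, Stard4 and the β-cell share are highest in db/m replicate 1, and Lcat, Stard3 and the acinar share are highest in db/db replicate 1.

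The members were set beside wider gene lists of the same pathway. Stard4 shares its regulator with the SREBP2 targets, of which 18 were tested. Of these, 5 were lower and 0 higher at an unadjusted p under 0.05, with a median log2 fold change of -0.14, beside 9.89% lower and 5.04% higher among all tested genes. Without db/m replicate 1 or without db/db replicate 3, 3 were lower. Among them, Idi1, an isomerase of the isoprenoid precursors of cholesterol, had 5, 11 and 9 counts in db/db mice and 53, 31 and 22 in db/m mice (log2 fold change -1.55, SE 0.51, edgeR adjusted p = 0.203). Sqle, squalene epoxidase, had 102, 184 and 115 against 624, 196 and 218 counts (log2 fold change -0.78, SE 0.32, edgeR adjusted p = 0.304). Without db/m replicate 1 Sqle was at -0.35, and with the acinar covariate at -0.18. For both genes the groups did not overlap, and db/m replicate 1 was the highest, as for Stard4.

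Beside the esterification genes, 10 acyltransferase and lipid droplet coat genes were tested, of which 3 were higher and 0 lower at an unadjusted p under 0.05, with a median log2 fold change of 0.61, beside the same 5.04% and 9.89% of all tested genes. With library totals alone 0 were higher and 1 lower, and without db/db replicate 3 there were 0 in either direction. The share of all tested genes is not given for these settings. Under TMM the 3 were Plin5, a droplet coat protein of tissues that burn fat, at a log2 fold change of 2.16 (SE 0.72, edgeR adjusted p = 0.210), Hilpda, an inhibitor of the triglyceride lipase Pnpla2, at 3.07 ± 0.766 against 1.52 ± 0.359 CPM (adjusted p = 0.295), and the droplet coat gene Plin3 at a log2 fold change of 0.63 (adjusted p = 0.311). Of 7 tested lipoprotein genes that act with Lcat, 1 was higher, namely Scarb1, the receptor for high-density lipoprotein, at 20.9 ± 0.990 against 11.3 ± 2.28 CPM (SD, n = 3 each, log2 fold change 0.89, SE 0.23, edgeR adjusted p = 0.120). Apoa1, the main activator of Lcat, was too low to be tested, with 0 counts in every db/db mouse and 3, 10 and 1 in the db/m mice.

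Beside the hydrolysis genes, 9 other ester hydrolases and lipid droplet lipases were tested, of which 2 were higher and 0 lower at an unadjusted p under 0.05, with a median log2 fold change of 0.65, beside 5.04% and 9.89% of all tested genes. This count was 1 with library totals alone and without db/db replicate 3, and 4 without db/m replicate 3. Mgll, monoacylglycerol lipase, was at 46.0 ± 5.73 against 23.3 ± 6.26 CPM (SD, n = 3 each, edgeR adjusted p = 0.121), and Ces1d, a carboxylesterase, had a log2 fold change of 1.74 with overlapping groups (adjusted p = 0.193). Of 36 lysosomal genes, the compartment of Lipa, Npc1 and Npc2, 3 were higher, among them Gm2a and Ctsd with log2 fold changes of 0.73 and 0.67, and 1 was lower (Atp6v1a, -0.60) at an unadjusted p under 0.05. All tested genes were at 5.04% higher and 9.89% lower, and the adjusted p-values of the 3 named genes were 0.273 to 0.295 in edgeR. With library totals alone 0 lysosomal genes were higher and 7 lower, and with the replicate block there were 0 in either direction. Leaving out 1 mouse gave 1 to 9 in all, 9 of them without db/m replicate 3. The shares of 5.04% and 9.89% do not apply to such other settings, so these counts are no result about the lists. Of 22 other sterol transfer genes 1 was higher and 1 lower, namely Gramd1b, which carries sterol from the plasma membrane to the endoplasmic reticulum (1.23, SE 0.39, adjusted p = 0.188), and the oxysterol-binding protein gene Osbpl7 (-1.18, adjusted p = 0.330). With library totals alone 0 of them were higher and 3 lower, and without db/m replicate 3 there were 4 higher and 1 lower. With library totals alone, all of these lists but the other ester hydrolases had negative medians, between -0.71 and -0.09, and with the acinar covariate the counts at an unadjusted p under 0.05 were 0 of 10 for the droplet coat list and 1 higher and 3 lower of 18 for the SREBP2 targets.

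**Figure D5:**
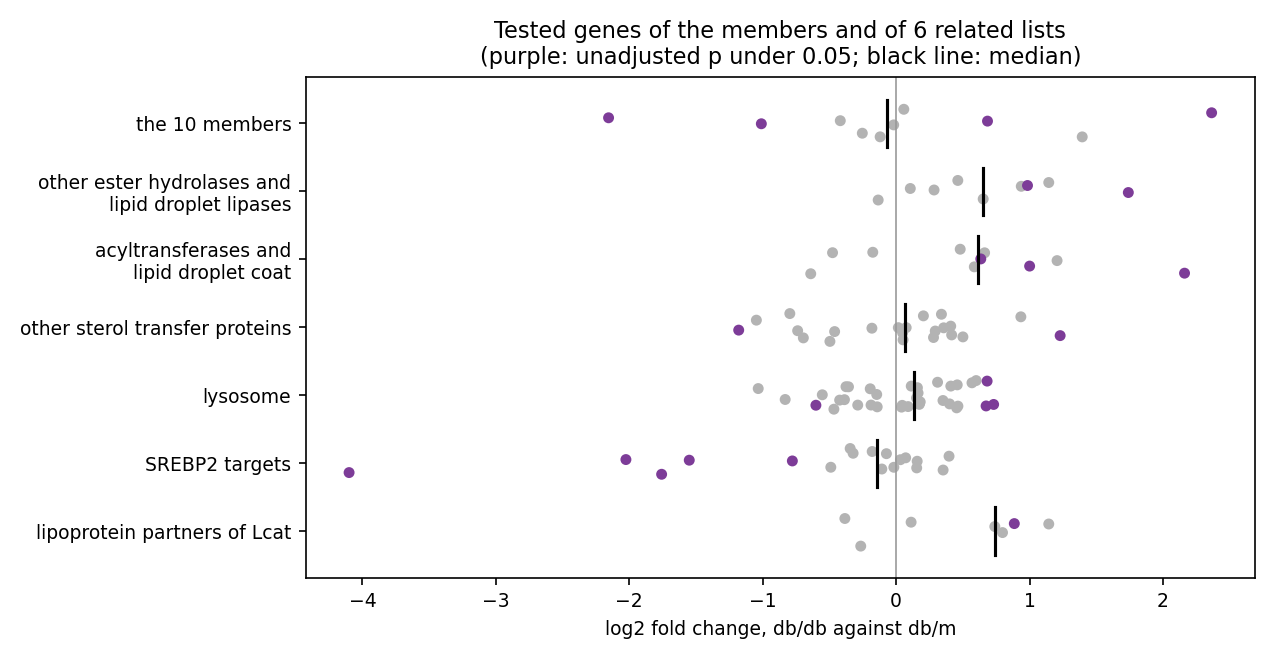
Log2 fold change of db/db against db/m islets for the 10 members and for the tested genes of 6 wider lists (each point a gene, purple where the unadjusted p of edgeR was under 0.05, black line at the median). The purple points of the SREBP2 targets all lie left of 0 and those of the droplet lists right of 0, while the members have 2 on each side.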

How the data were processed

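RNA-seq was performed on islets of 3 db/db and 3 db/m mice, grouped and numbered by the labels. The authors filtered the reads and mapped them to mm10, and deposited raw counts per gene symbol, with no normalization. The mapper is TopHat in the methods of the study and HISAT2 2.0.4 in the submitters' processing notes. The counting program, annotation and strand setting are not given in the sources used here. Library totals were 15641797 to 20614531 counts, and a limit of 3 counts corresponded to 0.110 to 0.241 CPM.

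Here, counts were tested in R 4.3.3 with edgeR 4.0.16 (filterByExpr defaults, TMM, quasi-likelihood F test) and Benjamini-Hochberg adjustment over 12760 genes, at a threshold of 0.05. The scripts were checked on simulated data. Standard errors were the size of the log2 fold change over the square root of F. Single ratios, computed from counts with 0.5 added, were tested in scipy 1.17.1 by exact permutation of the mice, two-sided. Within a group the sources tell the mice apart only by a number, and p-values rest on the spread between these 6 samples. Alternatives were DESeq2 1.42.0, other scalings and filters, a replicate block, an acinar covariate (18 markers) and leaving out each mouse. They were applied to the wider lists after the data had been seen. The members and the gene lists were chosen with earlier results of these data known. Named were all members and, from each list, up to 4 genes of smallest p in each direction among those with an unadjusted p under 0.05. Some genes that this rule names are not reported here. Other genes were named after their values were seen (Lepr, Mir7222, Apoa1, Cel and overlapping genes). RefSeq positions and sequences were taken from GRCm38, the build named mm10. Counts of circRNAs were not analysed here.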

Additional observations from a re-analysis of the deposited data

How the results depend on the processing

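At an adjusted p under 0.05, 79 genes were called. The count was 21 with library totals in place of TMM, 52 with upper-quartile factors, 707 with DESeq2, 888 with every gene of at least 1 count, and 16 with a replicate block. Leaving out 1 mouse gave 10 to 333 genes, namely 17, 10 and 12 without db/db replicates 1, 2 and 3, and 52, 30 and 333 without db/m replicates 1, 2 and 3. The number of members with an unadjusted p under 0.05 was 4, 1 with the acinar covariate, and 3 to 6 with 1 mouse left out. For the members and the wider lists alike, the share of all tested genes at that p is given for the main fit only. Lcat stayed under it in all 14 alternatives, Soat1 in 13, Stard3 in 12 and Stard4 in 11, with no change of sign. Same-numbered mice did not deviate together (correlations -0.527, -0.195 and -0.323), and under the replicate block the same number of members, 4, had an unadjusted p under 0.05. The direction turned for 4 members that overlapped. Lipe was at 0.39 with the acinar covariate and between -0.53 and 0.13 with 1 mouse left out. Lipa was at 0.058 with the replicate block, at 0.26 with the acinar covariate and between -0.25 and 0.35 with 1 mouse left out (0.10 without db/db replicate 2). Nceh1 was at -0.51 with library totals, at -0.27 with the acinar covariate and between -0.077 and 0.21 with 1 mouse left out (-0.05 without db/m replicate 1). Npc1 was between -0.44 and 0.076 with 1 mouse left out, and Lipe was at 0.10 without db/m replicate 1. The cause was not tested. No ratio turned its direction between groups that were apart. The difference for Soat1 to Soat2 was between -4.09 and -1.84 and that for Stard3 to Stard4 between 2.35 and 4.30 with 1 mouse left out, the values nearest to 0 being those without db/m replicate 2 and without db/db replicate 1. Depth limits Stard4 and Soat2 most, each with 1 mouse at 1 or 2 counts.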

Other observations

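The most abundant cholesterol ester hydrolase in these libraries was none of the members. Cel, the bile-salt-dependent lipase that acinar cells secrete, had 614767, 549333 and 506928 counts in db/db mice and 350513, 393926 and 705465 in db/m mice, where Nceh1 had 369 to 585. The level of Cel was 38763 ± 9192 against 24668 ± 12754 CPM (SD, n = 3 each), with overlapping groups, a log2 fold change of 0.65 (SE 0.59) and an unadjusted p of 0.295 in edgeR. Cel is also 1 of the 18 acinar markers.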
